A study of Homo sapiens with 14 samples.

Results

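Drebrin, paralemmin and 8 further proteins were followed at the RNA level in 2 prostate cancer cell lines. They belong to the actin or spectrin cytoskeleton, the inner face of the plasma membrane or the postsynaptic scaffold. The 10 genes, DBN1, DBNL, CTTN, SHANK2, SHANK3, SPTAN1, PALM, GAP43, MARCKS and MARCKSL1, were taken by symbol from a list, out of 24199 features in the DU145 table and 44591 genes in the LNCaP table, and all 10 were present in both. They were chosen by how they stood in the same 2 comparisons that are given here, so their own differences are a description. They were part of the fit across all features, and where they are counted as called or not, the count is no independent test. The study asked what the neural transcription factor PAX6 does in neuroendocrine prostate cancer. DU145, an androgen-independent prostate carcinoma line, carried a stable lentiviral short hairpin RNA under puromycin selection, either a non-target control (shCON, 3 libraries) or one against PAX6 (shPAX6, 3 libraries). The labels do not say which of the study's hairpins the shPAX6 libraries carry, nor whether the replicates are separate cultures, so p-values measure only the spread between these samples, which may be technical. LNCaP, an androgen-sensitive prostate carcinoma line, was sequenced as parental cells (1 library) and as LNCaP-ENZ cells (1 library), kept in 20 µM enzalutamide, an antiandrogen, with 30 days given in the text of the series.

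Drebrin (DBN1) binds along the sides of actin filaments in dendritic spines, and drebrin-like protein (DBNL) shares its actin-binding domain and couples actin to endocytosis. Cortactin (CTTN) binds the Arp2/3 complex at branch points of the actin network, and the SHANK proteins are large scaffolds of the postsynaptic density that bind cortactin. Paralemmin (PALM), GAP43, MARCKS and MARCKSL1 are held at the inner face of the plasma membrane by lipid anchors, and SPTAN1 is the alpha chain of the non-erythroid spectrin lattice beneath it. Several of them are not particular to neurons, since epithelial cells also use cortactin, spectrin, drebrin-like protein and the MARCKS family.

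RefSeq promoters were given for 7 of the 10 genes, all but CTTN, SHANK2 and PALM, and the 250 bases before the start of transcription were searched on both strands. Shown here are DBN1, which had the lowest fold change of these 7 in DU145, and the paralogous pair MARCKS and MARCKSL1, whose values went opposite ways there. The sequences run 5′ to 3′ on the strand of the gene in GRCh38.p14, from chr5:177472841-177473090 (minus strand) for DBN1, chr6:113857095-113857344 (plus strand) for MARCKS and chr1:32336234-32336483 (minus strand) for MARCKSL1. Capitals mark the GC box GGGCGG or its complement CCGCCC.
DBN1: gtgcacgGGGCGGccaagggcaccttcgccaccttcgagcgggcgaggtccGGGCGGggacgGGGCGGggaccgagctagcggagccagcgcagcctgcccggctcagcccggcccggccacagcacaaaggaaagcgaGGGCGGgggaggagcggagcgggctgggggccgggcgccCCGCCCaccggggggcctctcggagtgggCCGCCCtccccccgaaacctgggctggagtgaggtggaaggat
MARCKS: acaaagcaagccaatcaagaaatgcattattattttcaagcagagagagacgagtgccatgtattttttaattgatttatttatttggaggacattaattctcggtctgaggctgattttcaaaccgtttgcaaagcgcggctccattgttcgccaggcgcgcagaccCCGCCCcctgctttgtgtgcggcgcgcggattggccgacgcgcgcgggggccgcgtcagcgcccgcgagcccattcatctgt
MARCKSL1: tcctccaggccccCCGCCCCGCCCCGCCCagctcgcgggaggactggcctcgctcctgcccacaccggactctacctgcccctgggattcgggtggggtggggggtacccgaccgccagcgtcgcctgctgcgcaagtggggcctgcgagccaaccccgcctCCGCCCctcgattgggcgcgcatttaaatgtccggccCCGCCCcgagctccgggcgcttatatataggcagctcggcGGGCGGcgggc
The GC box matched 6 times before DBN1, 6 times before MARCKSL1, where the leftmost matches share bases, and 1 time before MARCKS. It was present in 5 of the 7 promoters and in 42.6% of all 35116 promoters of the same length. The GC content of these bases was 77.2% for DBN1 and 74.0% for MARCKSL1, against 52.8% for MARCKS and a median of 58.0% over all promoters. A core of the PAX6 paired-domain site (TTCACGC) was found in 0 of the 7 promoters and in 1.10% of all, and the STAT5 palindrome (TTCNNNGAA) in that of GAP43 alone and in 6.57% of all. The TATA box (TATAAA) matched before SPTAN1 alone and in 10.7% of all.

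The deposited DU145 values were read as FPKM, fragments per kilobase scaled by library size. PAX6 itself was at 0.839, 1.23 and 1.57 FPKM in the shCON libraries and at 0.0153, 0.274 and 0.0778 FPKM in the shPAX6 libraries, so the groups did not overlap, although its log2 fold change of -2.69 ± 0.49 (SE) did not pass the threshold (limma, adjusted p = 0.0539). It passed the filter of 0.5 FPKM through the shCON libraries alone (shPAX6 mean 0.123 FPKM). Its log2 fold change was -0.97 with a pseudocount of 1 and -3.79 with one of 0.01. It was past the threshold in 4 of 13 other fits. The shPAX6 library 1 stood apart, with the largest FPKM total (570790, against 448901 to 503696 in the others) and the fewest features above 0 (17170, against 17926 to 18301). Markers were read from lists. Of 5 luminal markers 1 passed the filter in DU145 and FOLH1 was at 0 there, whereas FOLH1 had 8171 and 7894 counts in parental LNCaP and LNCaP-ENZ. Of 7 neuroendocrine markers ENO2 alone passed the filter in DU145, with CHGB at 0 in every library, and the summed level of the list was 21.8 to 24.7 FPKM in shCON and 24.5 to 32.9 FPKM in shPAX6. The 4 leukocyte markers summed to 35.8 to 38.6 FPKM in shCON and 24.3 to 26.2 FPKM in shPAX6, with CD68 the 1 gene above the filter and PTPRC and CD3E at 0. Of the 4 fibroblast markers COL1A1 alone passed the filter, with COL1A2 and DCN at 0, and the list summed to at most 0.773 FPKM. The 4 epithelial markers all passed the filter and summed to between 1135 and 1816 FPKM. Within them E-cadherin (CDH1) fell, with a log2 fold change of -2.28 ± 0.34 (SE; limma, adjusted p = 0.0334). EPCAM was lower in every shPAX6 library but not called, at -0.75 ± 0.14 (SE; limma, adjusted p = 0.0537). KRT8 and KRT18 overlapped between the groups, at -0.28 and 0.07. The part of these marker changes in the results that follow was not tested.

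In DU145, DBN1 and PALM were the genes of the set with the largest losses, SHANK3 and MARCKSL1 had lower values in every shPAX6 library, and MARCKS had higher ones. DBNL, CTTN, SHANK2 and SPTAN1 overlapped between the groups, and GAP43 was listed at 0 in 5 of the 6 libraries and at 0.0254 FPKM in the shPAX6 library 3. The values were compared with limma on log2(FPKM + 0.1) among the 13574 features whose mean level was 0.5 FPKM or more, a limit that 9 of the 10 genes reached. MARCKS reached it through the shPAX6 libraries alone, since its shCON mean was 0.454 FPKM. At an adjusted p of 0.05, 2 of the 9 were called lower, where 1.02% of all tested features were, and 0 were called higher, where 0.177% of all were. Every shPAX6 library lay under every shCON library for 4 of the 9, against 20.0% of all tested features, and above for 1, against 6.70%. These counts follow from the choice of the genes. In bulk RNA, fewer cells of a kind and less RNA per cell cannot be told apart. The median log2 fold change of the 9 genes was -0.50, and that of all tested features -0.12.

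**Figure D1:**
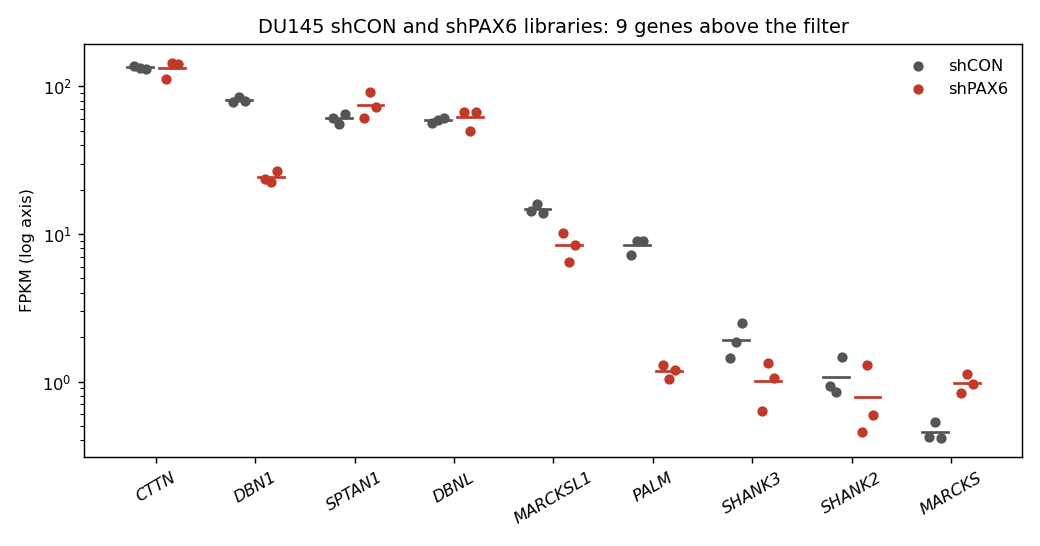
FPKM on a log axis in the 3 shCON (grey) and 3 shPAX6 (red) libraries of DU145 for the 9 genes above the filter, in order of their shCON mean, with points for libraries and bars for group means. DBN1 dropped from 78.0 to 84.8 FPKM in shCON to 22.5 to 26.8 FPKM in shPAX6 and PALM from 7.25 to 9.02 FPKM to 1.05 to 1.29 FPKM, while CTTN, DBNL, SPTAN1 and SHANK2 overlapped.

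Among the actin-binding proteins, DBN1 stood at 78.0, 84.8 and 79.7 FPKM in the shCON libraries and at 23.5, 22.5 and 26.8 FPKM in the shPAX6 libraries. The groups were far apart, with means of 80.8 ± 3.5 (SD, n = 3) and 24.2 ± 2.3 FPKM (SD, n = 3), a 3.33-fold lower level and a log2 fold change of -1.74 ± 0.13 (SE). Its rank among all features by mean level went from 1041 to 3166. DBNL, its relative, was at 56.6, 59.4 and 60.6 FPKM in shCON and at 67.2, 50.1 and 67.5 FPKM in shPAX6. Its groups overlapped, with a log2 fold change of 0.05 ± 0.15 (SE). The ratio of DBN1 to DBNL within a library, which no scaling of the library can move, was 1.38, 1.43 and 1.31 in shCON and 0.350, 0.448 and 0.397 in shPAX6. DBN1 was thus the more abundant of these relatives per length in every shCON library and the less abundant in every shPAX6 library.

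CTTN was the most abundant gene of the set in both DU145 groups. It was at 138, 134 and 132 FPKM in shCON and at 111, 145 and 142 FPKM in shPAX6, where library 1 was the lowest of all 6 and the other two the highest. Its log2 fold change was -0.03 ± 0.14 (SE), and this sign turned with median centring (0.15) and with a correction for GC content (0.24). CTTN lies at chr11:70244612-70282690 and the 3′ end of SHANK2, which lies on the other strand, is 31268 bases farther along the chromosome (GRCh37). The levels of these neighbours differed widely, at 134 ± 3.0 and 1.08 ± 0.33 FPKM (SD, n = 3) in shCON.

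Both SHANK scaffolds were close to the filter. SHANK3 was at 1.43, 1.85 and 2.48 FPKM in shCON and at 0.628, 1.34 and 1.05 FPKM in shPAX6, so that the highest shPAX6 library lay just under the lowest shCON library. Its log2 fold change was -0.89 ± 0.34 (SE). SHANK2 was at 0.940, 0.845 and 1.46 FPKM in shCON and at 0.458, 1.30 and 0.590 FPKM in shPAX6. These groups overlapped, with a log2 fold change of -0.50 ± 0.41 (SE). The ratio of SHANK3 to SHANK2 ranged from 1.53 to 2.19 in shCON and from 1.03 to 1.79 in shPAX6, and overlapped too. Reads from SHANK2 cannot be told apart from those of the antisense transcripts annotated within it (SHANK2-AS1, SHANK2-AS2 and SHANK2-AS3), because no use of strand is stated.

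Among the lipid-anchored proteins, PALM was at 7.25, 9.02 and 8.94 FPKM in shCON and at 1.29, 1.05 and 1.20 FPKM in shPAX6. The group means of 8.40 ± 1.00 and 1.18 ± 0.12 FPKM (SD, n = 3) were 7.13-fold apart, with a log2 fold change of -2.73 ± 0.20 (SE). MARCKSL1 was at 14.3, 15.9 and 13.9 FPKM in shCON and at 10.2, 6.42 and 8.42 FPKM in shPAX6, a log2 fold change of -0.83 ± 0.20 (SE). MARCKS, the other substrate of protein kinase C in this family, was at 0.421, 0.528 and 0.412 FPKM in shCON and at 0.833, 1.13 and 0.959 FPKM in shPAX6, a log2 fold change of 0.95 ± 0.27 (SE). Neither pair of groups overlapped, and the ratio of MARCKS to MARCKSL1 went from 0.0307 ± 0.0021 to 0.124 ± 0.048 (SD, n = 3). MARCKSL1 remained the more abundant of the pair in all 6 libraries. The genes lie apart, MARCKS at chr6:114178514-114184652 and MARCKSL1 at chr1:32799430-32801840 (GRCh37).

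SPTAN1 was at 60.9, 55.7 and 65.4 FPKM in shCON and at 60.9, 91.5 and 72.6 FPKM in shPAX6. The groups overlapped, since the shPAX6 library 1 fell within the range of the shCON libraries, and the log2 fold change was 0.29 ± 0.17 (SE). Set beside this membrane skeleton protein, PALM went from 0.119, 0.162 and 0.137 of the SPTAN1 level in shCON to 0.0212, 0.0114 and 0.0165 in shPAX6. The last bases of SPTAN1 overlap DYNC2I2 on the other strand, and DBNL overlaps PGAM2 likewise, so reads there could belong to either gene.

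The order of levels thus differed between the DU145 groups. In shCON it ran CTTN, DBN1, SPTAN1, DBNL, MARCKSL1, PALM, SHANK3, SHANK2 and MARCKS. Of the neighbours in this order, SPTAN1 and DBNL overlapped over the libraries, as did SHANK3 and SHANK2. In shPAX6 it ran CTTN, SPTAN1, DBNL, DBN1, MARCKSL1, PALM, SHANK3, MARCKS and SHANK2, with SPTAN1 and DBNL overlapping and PALM, SHANK3, MARCKS and SHANK2 overlapping each with the next.

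Fold changes in DU145 went down with the GC content of the transcript, and the genes of the set lay along this range. Over the 12009 tested genes with a GC content (88.5%), Spearman's rho was -0.363, a correlation across genes that share their libraries and are not independent. The median log2 fold change was 0.02 for genes of 30 to 45% GC and -0.39 for those of 65 to 75%. MARCKS had the lowest GC content of the 9 (43.8%), and PALM (67.6%), SHANK3 (67.4%) and DBN1 (63.4%) the highest. The other genes within 2.5 percentage points of the GC content of a gene of the set had a median log2 fold change of -0.37 for PALM (374 genes), -0.32 for DBN1 (1166 genes), -0.36 for SHANK3 (395 genes) and -0.03 for MARCKS (2404 genes). With a loess correction for GC content in each library the log2 fold changes were -2.29 for PALM, -1.36 for DBN1, -0.52 for MARCKSL1, -0.45 for SHANK3 and 1.00 for MARCKS.

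**Figure D2:**
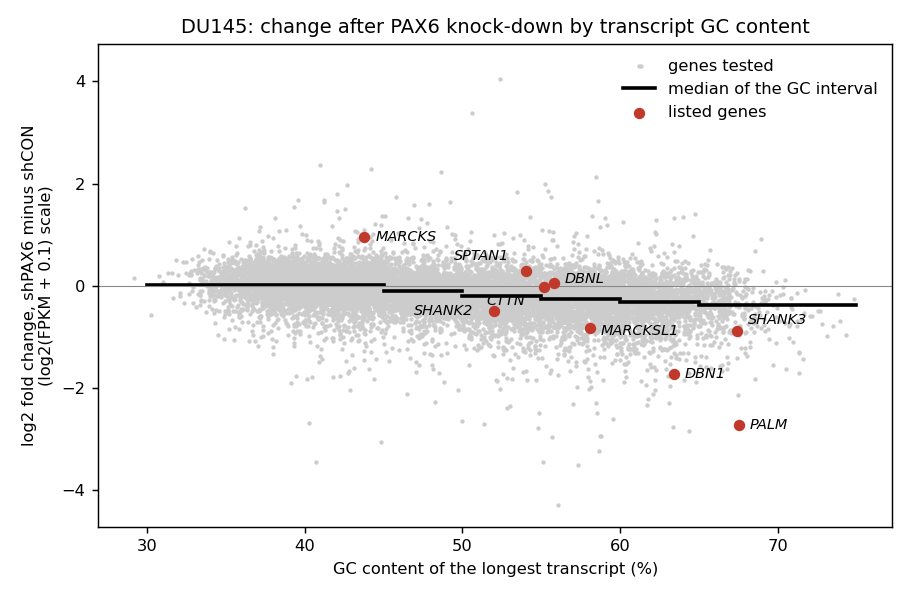
Log2 fold change of shPAX6 against shCON in DU145 by GC content of the longest transcript, with grey points for tested genes, black lines for the median of each GC interval and red points for the 9 genes. The medians decline from 0.02 to -0.39, and PALM and DBN1 lie below the line and MARCKS above it.

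Median centring moved every log2 fold change up by 0.18. Relative to this shift DBN1 was at -1.56, PALM at -2.56, SHANK3 at -0.72, MARCKSL1 at -0.66, SHANK2 at -0.33, DBNL at 0.23, SPTAN1 at 0.46 and MARCKS at 1.13. The fold changes of DBN1 and PALM stayed within -1.81 to -1.68 and -2.83 to -2.65 when any 1 library was left out. Neither was called without shCON library 1, 2 or 3, fits in which 0, 5 and 0 of all features were called. MARCKSL1 was called lower without the shPAX6 library 1 and in no other fit. SHANK2, called in none of these fits, moved to -0.29 without the shCON library 3, to -0.23 without the shPAX6 library 1 and to -0.89 without the shPAX6 library 2.

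**Figure D3:**
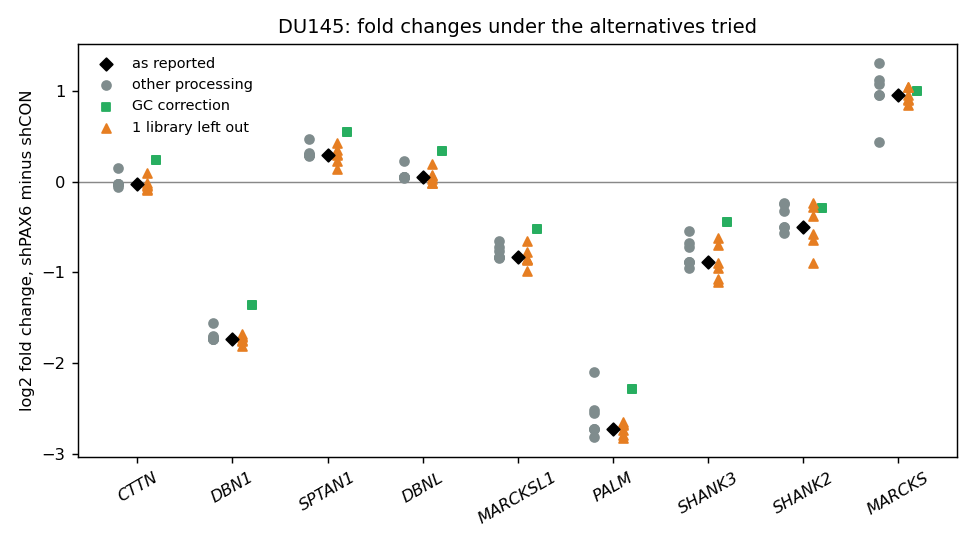
Log2 fold change of each of the 9 genes in DU145 as reported (black diamonds), with other pseudocounts, filters and scalings (grey circles), with the GC correction (green squares) and with 1 library left out (orange triangles). DBN1 stays between -1.81 and -1.36 and PALM between -2.83 and -2.11, whereas CTTN and DBNL fall on both sides of 0.

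The genes whose levels followed DBN1 and PALM most closely over the 6 libraries were named by Pearson's r, which mainly reflects the difference between the groups and says nothing of shared function. DBN1 and PALM themselves had r = 0.995. Nearest to DBN1 were MFF, IFIT1, CCL20, GNAI2 and GRIPAP1, with r from 0.997 to 0.998. Their log2 fold changes ran from -0.65 (GRIPAP1) to -1.76 (IFIT1, an interferon-induced gene). Nearest to PALM were ZNF385A, SIX5, CBLC, AKT1S1 and SEZ6L2, with r from 0.997 to 0.999 and log2 fold changes from -0.74 (SEZ6L2) to -1.79 (AKT1S1, a subunit of the mTORC1 complex). None of the 10 is a member of the set.

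The genes next to DBN1 and PALM on their chromosomes were then listed, a choice made after values had been seen. Within 100 kb of DBN1, at chr5:176883614-176900694 (GRCh37), 8 other genes were tested, and 1 was called lower, where 1.02% of all tested features were. It was GRK6, a kinase of G protein-coupled receptors 13707 bases away, at 34.3, 36.2 and 38.3 FPKM in shCON and at 8.22, 6.09 and 9.25 FPKM in shPAX6. GRK6 fell 4.62-fold, more than DBN1 itself, with a log2 fold change of -2.21 ± 0.18 (SE; limma, adjusted p = 0.00462). PRR7, only 322 bases from DBN1, overlapped between the groups at 6.28 to 12.4 and 3.02 to 9.45 FPKM, and PDLIM7, 8993 bases away, had a log2 fold change of -0.07 ± 0.19 (SE; limma, adjusted p = 0.890). Within 100 kb of PALM, at chr19:708953-748330 (GRCh37), 7 others were tested and 2 were called lower, beside the same 1.02% of all features. MISP, a protein of the mitotic spindle and actin cortex 2783 bases away, had a log2 fold change of -0.96 ± 0.16 (SE; limma, adjusted p = 0.0402), and POLRMT, the mitochondrial RNA polymerase, one of -0.69 ± 0.12 (SE; limma, adjusted p = 0.0449). PLPPR3, another neuronal membrane protein, stood at 1.29 to 2.66 FPKM in shCON and 0.393 to 0.637 FPKM in shPAX6 and missed the threshold (limma, adjusted p = 0.0651). The median log2 fold change was -0.37 over the 8 neighbours of DBN1 and -0.69 over the 7 of PALM, beside -0.12 over all tested features. HCN2, 1 of these 7, passed the filter through the shCON libraries alone (shPAX6 mean 0.478 FPKM). The neighbours of both genes had a GC content of 56.6 to 71.3%. Tested genes of 55 to 60%, 60 to 65% and 65 to 75% GC had medians of -0.27, -0.31 and -0.39. Of those genes 2.41%, 3.67% and 3.09% were called lower. The neighbours were not tested against genes of like GC content. With the correction for GC content GRK6 was at -1.86, MISP at -0.59 and POLRMT at -0.28, and POLRMT was then not called (limma, adjusted p = 0.311). The GRK6, MISP and POLRMT calls were each lost without any 1 of the shCON libraries, fits in which almost no feature was called at all. Those of MISP and POLRMT were also lost without the shPAX6 library 3, with median centring and with no filter.

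**Figure D4:**
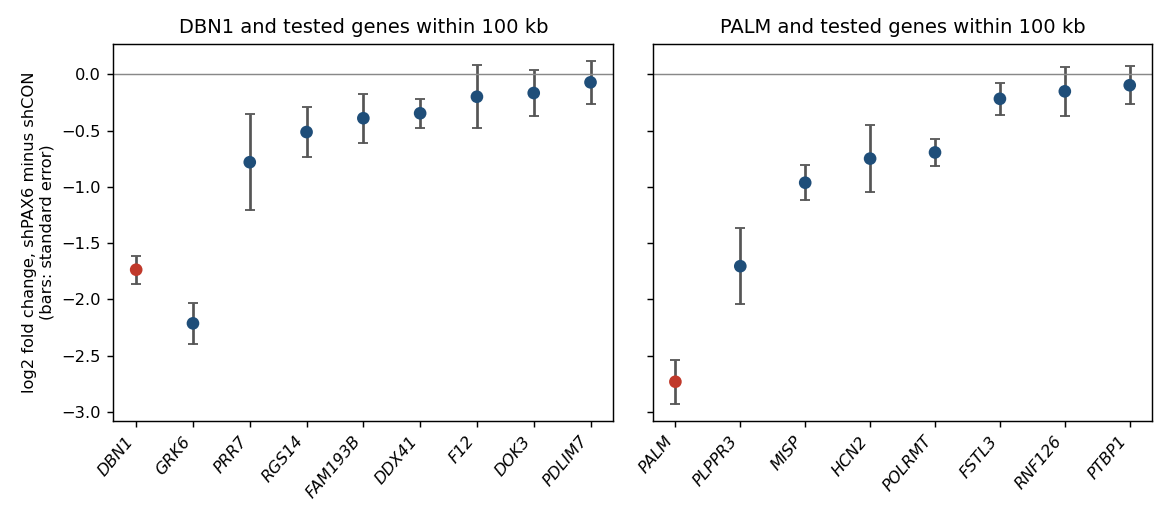
Log2 fold change with its standard error in DU145 for DBN1 and 8 tested genes within 100 kb (left) and for PALM and 7 such genes (right), with the gene of the set in red. GRK6 lies at -2.21, below DBN1, while PDLIM7 and PTBP1 lie near 0.

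The set was placed among 130 related genes on 6 lists, of which 104 passed the filter in DU145. Of these, 2 were called lower and 0 higher (limma), where 1.02% and 0.177% of all tested features were. An unadjusted p under 0.05 was found for 23 of the 104, beside 18.3% of all tested features, and 65 had values below 0, beside 62.9% of all. On the list of growth cone and paralemmin-related membrane proteins 1 of 13 tested genes was called. It was STMN3, a stathmin that binds tubulin, at 4.65, 4.59 and 4.03 FPKM in shCON and 1.63, 1.56 and 1.59 FPKM in shPAX6, a log2 fold change of -1.42 ± 0.18 (SE; limma, adjusted p = 0.0233). On the same list PALM3, a paralog of paralemmin, was at 0.942 to 1.21 FPKM in shCON and at 0.141 to 0.413 FPKM in shPAX6 and missed the threshold, with a log2 fold change of -1.94 ± 0.38 (SE; limma, adjusted p = 0.0598). MAP2, a dendritic microtubule protein, had the highest value there, 1.505 ± 0.45 (SE; limma, adjusted p = 0.149), and passed the filter through the shPAX6 libraries alone (shCON mean 0.426 FPKM), as PALM3 did through the shCON libraries (shPAX6 mean 0.233 FPKM). The median of this list was -0.14.

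On the list of the spectrin-based membrane skeleton 1 of 15 tested genes was called. It was DMTN, dematin, which bundles actin at the spectrin lattice, at 20.9, 19.6 and 23.0 FPKM in shCON and 8.63, 10.2 and 11.7 FPKM in shPAX6, a log2 fold change of -1.06 ± 0.16 (SE; limma, adjusted p = 0.0350). DMTN was not past the threshold with the GC correction, where it was at -0.71 (limma, adjusted p = 0.0774), and STMN3 was called with it at -1.04. Both calls were lost without any 1 of the shCON libraries, fits in which almost no feature was called at all, and without the shPAX6 library 3. The DMTN call was also lost with median centring and with no filter, whereas that of STMN3 was kept there. The erythroid beta spectrin SPTB had the highest value of the list at 0.64 ± 0.34 (SE; limma, adjusted p = 0.380). The median of the list was -0.26.

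The 4 other lists had 0 calls in either direction by limma. Of all tested features 18.3% had an unadjusted p under 0.05 and 62.9% values below 0. The counts of single lists that follow are small, and none was tested against these shares. Among 20 tested postsynaptic scaffold proteins, 17 had values below 0 and 4 an unadjusted p under 0.05, and their median log2 fold change was -0.22. ITPKA, an actin-bundling kinase of spines, came closest, at -1.504 ± 0.27 (SE; limma, adjusted p = 0.0514), and MAGI3 was highest at 0.11 ± 0.38 (SE; limma, adjusted p = 0.916). Among 23 genes of the Arp2/3 complex and its activators 3 had an unadjusted p under 0.05, WIPF1, WAS and DNM2, all with values below 0. The 23 ran from WIPF1 at -0.999 ± 0.35 (SE; limma, adjusted p = 0.199) to WASF1 at 0.48 ± 0.22 (SE; limma, adjusted p = 0.309), with a median of -0.10. Among 15 ADF-H and actin turnover proteins 4 had an unadjusted p under 0.05, with CORO1A at -0.80 ± 0.29 (SE; limma, adjusted p = 0.215), cofilin 2 (CFL2) at 0.60 ± 0.14 (SE; limma, adjusted p = 0.0834) and a median of 0.07. Among 18 kinases, phosphatases, calmodulins and calpains 4 had an unadjusted p under 0.05, CALM2 and FYN with values above 0 and SRC and CAPN1 with values below. The 18 ran from CDK5R1 at -0.83 ± 0.37 (SE; limma, adjusted p = 0.291) to FYN at 0.61 ± 0.20 (SE; limma, adjusted p = 0.189), with a median of 0.01. CDK5R1 passed the filter through the shCON libraries alone (shPAX6 mean 0.481 FPKM). Relative to the shift by median centring, the medians of the growth cone and Arp2/3 lists turned to 0.03 and 0.07, beside 0.06 over all tested features. That of the growth cone list was also above 0 with the GC correction (0.06), beside 0.02 over all. The list medians also rested on single libraries. Without the shPAX6 library 1 they were 0.04 (spectrin), -0.03 (growth cone), -0.07 (postsynaptic), -0.01 (Arp2/3), 0.14 (ADF-H) and 0.13 (kinases and the rest). Without the shPAX6 library 2 they were -0.43, -0.47, -0.47, -0.33, -0.08 and -0.11 in the same order. Those of the ADF-H list and of the kinases and the rest also fell below 0 without the shCON library 2 (-0.02 and -0.07), and the latter without the shPAX6 library 3 (-0.02).

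In parental LNCaP the order of levels differed from that of the DU145 shCON means in the places of MARCKSL1, CTTN and PALM. DBN1, SPTAN1, DBNL, SHANK3, SHANK2 and MARCKS came in the same order in both. The values of the 2 lines are in different units, and their sizes were not compared. The parental library had 20468001 counts on genes and the LNCaP-ENZ library 17945722, and levels between genes are given as TPM, the share of transcripts scaled per length. MARCKSL1 was by far the most abundant, at 301 TPM in parental cells, rank 161 of all genes, followed by DBN1 (29.0), SPTAN1 (23.1), DBNL (21.1) and CTTN (20.8). SHANK3 (5.12), SHANK2 (3.23) and MARCKS (1.04) were lower. PALM, with 5 counts in parental cells and 4 in LNCaP-ENZ cells, and GAP43, with 2 and 1, were barely detected, GAP43 at or under the floor of 3 counts in both. In LNCaP-ENZ the order was MARCKSL1 (316), DBN1 (24.8), DBNL (24.04), SPTAN1 (19.7), CTTN (13.5), SHANK3 (4.82), SHANK2 (2.24) and MARCKS (0.280). With no replicates, the spread behind these neighbours in the order is unknown. PAX6 had 11 counts in parental and 4 in LNCaP-ENZ cells, which put its log2 ratio at -0.98 with an interval from -3.38 to 0.49.

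The study's methods speak of several replicates for each cell line, whereas the labels give 1 library per arm, and whether the deposited column holds 1 replicate or several is not known. With 1 column per arm no difference has a replicate check, and no test between conditions was made. Instead the log2 of (CPM + 0.1) in LNCaP-ENZ minus that in parental cells was taken, CPM being counts scaled by the library total, and is called the log2 ratio here. It is given with an exact Clopper-Pearson 95% interval of the count split that covers counting error only. Of the 8 genes with a mean of at least 1 CPM, 1 was at least 2-fold lower in LNCaP-ENZ, where 9.57% of all 14767 such genes were, and 0 were 2-fold higher, where 1.84% of all were. The median log2 ratio was -0.14 over the 8 genes and -0.15 over all. Setting the median of all genes to 0 therefore moved each value up by 0.15, and the signs of DBN1 and SPTAN1 turned with it.

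The 1 gene past 2-fold was MARCKS, with 88 counts in parental and 22 in LNCaP-ENZ cells. Its log2 ratio was -1.73, with an interval from -2.56 to -1.12. Relative to the median of all genes it was at -1.58. MARCKSL1 had 9224 counts in parental and 8996 in LNCaP-ENZ cells, and its log2 ratio was 0.15 (0.11 to 0.20), or 0.31 relative to the median. The ratio of MARCKS to MARCKSL1 in TPM went from 0.00346 to 0.000888. In DU145 shPAX6 the same ratio was higher than in shCON, but these are different lines, treatments and units, and the difference between them was not tested.

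For CTTN, with 1340 and 806 counts, the log2 ratio was -0.54 (-0.67 to -0.42), and for SHANK2, with 677 and 437 counts, -0.44 (-0.62 to -0.27). Relative to the median of all genes these were at -0.39 and -0.29, still with the parental library higher. For SHANK3, with 708 and 621 counts, the log2 ratio was 0.0006 (-0.16 to 0.16), so that at this depth no difference was detectable for it beyond counting error. For DBNL, with 917 and 973 counts, it was 0.27 (0.14 to 0.41), or 0.43 relative to the median.

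DBN1, the gene with the clearest loss in DU145 next to PALM, had 1886 counts in parental and 1500 in LNCaP-ENZ cells. Its log2 ratio of -0.14 (-0.24 to -0.04) was as far down as the median of all genes, and relative to it was 0.01. SPTAN1, with 3574 and 2838 counts, was likewise at -0.14 (-0.21 to -0.07) and at 0.01 relative to the median. The ratio of DBN1 to DBNL in TPM was 1.38 in parental cells and 1.03 in LNCaP-ENZ cells. For PALM the counts allow a log2 ratio anywhere from -2.47 to 2.08.

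**Figure D5:**
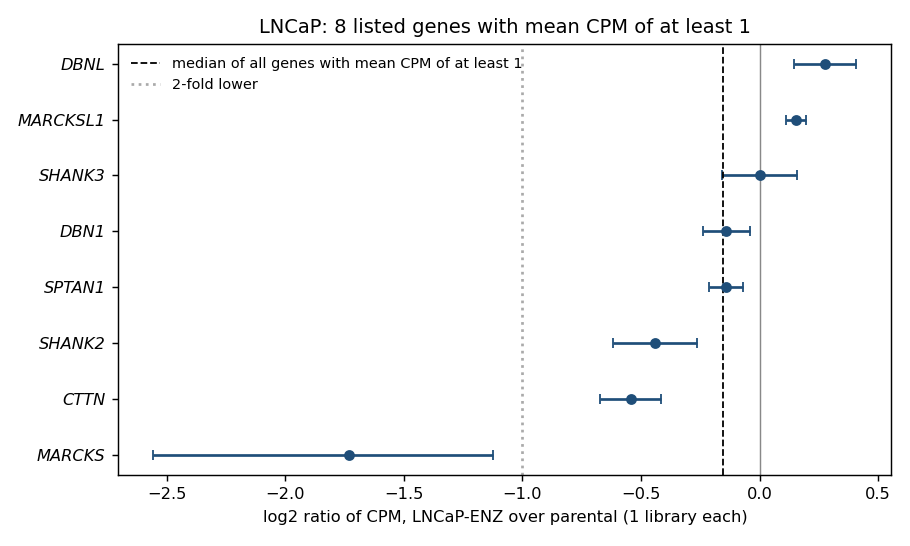
Log2 ratio of CPM + 0.1 in LNCaP-ENZ over parental LNCaP (1 library each) for the 8 genes with a mean of at least 1 CPM, with bars for the exact 95% interval of the counts, a dashed line for the median of all such genes and a dotted line for 2-fold lower. MARCKS lies past 2-fold at -1.73, and DBN1 and SPTAN1 lie on the median of all genes.

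Of the 130 related genes, 105 had a mean of at least 1 CPM in LNCaP, and 12 of them were at least 2-fold lower in LNCaP-ENZ, where 9.57% of all genes were, and 0 at least 2-fold higher, where 1.84% were. The counts of single lists that follow are small, and none was tested against that share. The growth cone list held 4 of the 12 among its 12 such genes. MAP1B, a microtubule protein of growing axons, dropped from 21202 to 3332 counts (log2 ratio -2.48, interval -2.53 to -2.43), and MAP2 from 186 to 16 counts (-3.21, -4.19 to -2.61). The adhesion molecule L1CAM (108 and 14 counts) and DPYSL4 (344 and 58 counts) were the others, while CRMP1 had the highest value at 0.67 (0.27 to 1.10). The median log2 ratio of this list was -0.11.

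The postsynaptic scaffold list held 3 of 21. They were PPP1R9A, neurabin, with 72 and 23 counts (-1.39, -2.20 to -0.76), HOMER2 with 1685 and 621 counts and DLG4, PSD-95, with 132 and 55 counts. Of these 21 genes, 19 had values below 0, beside 62.3% of all genes, and the median was -0.48, beside -0.15 over all. SHANK1, the third SHANK scaffold, was the highest of the list with only 7 and 16 counts (1.17, 0.02 to 2.91) and lay under the limit of 1 CPM. The list of kinases, phosphatases, calmodulins and calpains held 3 of 18, among them the kinase FYN with 55 and 8 counts (-2.35, -3.87 to -1.51) and the calcineurin subunit PPP3CA with 3257 and 1051 counts, while the calpain subunit CAPNS1 was highest at 0.43 (0.38 to 0.47). The median of this list was -0.34.

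The ADF-H and actin turnover list held 2 of 15, CAP2 with 360 and 140 counts (-1.16, -1.46 to -0.89) and GMFB with 1158 and 463 counts, and CORO1A was highest at 0.24 (-0.22 to 0.70). None of the 22 Arp2/3 genes was past 2-fold, from ACTR3, a subunit of the complex, at -0.87 (-1.004 to -0.74) to BRK1 at 0.50 (0.38 to 0.61). None of the 17 spectrin skeleton genes was past it either. TMOD2 was lowest at -0.999 (-1.53 to -0.53), just short of 2-fold, and ADD2, with 4 and 20 counts, was at 2.04 (0.93 to 4.52) but under the limit of 1 CPM. The medians of these lists were -0.22, -0.26 and -0.24. Of the 6 list medians in LNCaP, that of the growth cone list alone was above the median of all genes.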

How the data were processed

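The genes and the 6 lists were chosen with earlier results of these data known. Of 14 samples, 8 RNA-seq libraries were used, and 6 ATAC-seq samples are not analysed here. The study's methods give oligo-dT priming, alignment to GRCh37 with HISAT2 and quantification with StringTie. The labels describe other kits and another read length. Strand use is not given in the sources used here.

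For LNCaP the authors deposited whole-number counts per gene, and TPM, which equal counts over gene length, rescaled. The deposited DU145 values carry no unit in the header and were treated as FPKM. Among 359 low genes no step of whole reads was shared between libraries (at most 2.23% of ratios in 1 bin), so their depth is unknown and no count test was run.

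DU145 was analysed with limma 3.58.1 in R 4.3.3 (lmFit, eBayes with trend, Benjamini-Hochberg, threshold 0.05, two-sided) on log2(FPKM + 0.1) with a mean of at least 0.5 FPKM. Fold changes on this scale understate those of low genes. GC content came from the longest transcript of each gene in the annotation lifted to GRCh37, and the correction was a loess per library (span 0.5, degree 2). LNCaP counts were scaled by library total, with edgeR 4.0.16 for TMM factors only. Both steps were tested on simulated data. Alternatives were pseudocounts, filters, scalings, GC correction, a replicate block and leaving out each DU145 library. Named genes were all members, PAX6, the called list genes or else the extreme value in each direction, in LNCaP the extreme list genes with at least 20 counts, and the 5 genes nearest in pattern to DBN1 and to PALM. The list genes past 2-fold in LNCaP, the epithelial markers, CD68 and the chromosomal neighbours were named after their values were seen. Some genes that the rule or the lists cover are not reported here.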

Additional observations from a re-analysis of the deposited data

How the results depend on the processing

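In DU145 the 2 called genes of the set stayed 2 with other pseudocounts, filters, scalings and the GC correction. They were 0 with the replicate block and 1 (PALM) with the GC correction and block together, and ranged from 0 to 3 with 1 library left out. The labels do not say whether the replicate numbers pair the libraries. Same-numbered libraries correlated at -0.17, -0.37 and 0.05 in their deviations from the group means. With 3 libraries per group this cannot exclude a shared batch. The block alone left the log2 fold changes of the set as they were, and left 0 calls among all features. The 2 list genes called, both lower, became 4 with a pseudocount of 1, 5 with quantile normalization, 1 with no filter or with median centring, and 0 with the replicate block, alone or with the GC correction. With 1 library left out they ranged from 0 to 12, with 0 to 9 lower and 0 to 3 higher. The higher calls appeared without the shPAX6 library 1, when 924 of all features were called against 163 with all libraries. For the set's tested genes, the median of the log2 fold changes, -0.50, became -0.24 with a pseudocount of 1, -0.25 with quantile normalization, -0.33 with median centring, -0.27 with no filter, -0.29 with the GC correction, with or without the block, and -0.83 with a mean of at least 1 FPKM, where 7 of the 10 genes are tested. It ranged from -0.66 to -0.23 with 1 library left out. In LNCaP the median log2 ratio of -0.14 became 0.0046 with TMM factors and 0.013 with the median of expressed genes set to 0, while the counts past 2-fold did not change. The cause of these moves was not tested. Depth limits PALM and GAP43 in LNCaP, where at most 5 counts were seen.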

Other observations

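Some of the related genes had opposite values in the 2 comparisons, which differ in line, treatment and unit. MAP2 was at 0.433, 0.235 and 0.609 FPKM in the shCON libraries and at 0.868, 2.41 and 1.09 FPKM in the shPAX6 libraries of DU145, so that it passed the filter through the shPAX6 libraries alone, while in LNCaP it had 186 counts in parental and 16 in LNCaP-ENZ cells. FYN was at 1.48, 1.60 and 1.82 FPKM in shCON and at 2.43, 2.40 and 2.79 FPKM in shPAX6, and had 55 and 8 counts in LNCaP. Neither gene passed the threshold in DU145 (limma), although the groups did not overlap, and LNCaP has 1 library per arm. The difference between the comparisons was not tested.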
